A study of Mus musculus with 3 samples.

Results

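The cells described here were 165 differentiating granule neurons among 2408 kept cells from the cerebella of 3 *Eed*-deleted mice. They were chosen by their transcripts. A kept cell had 500 or more unique molecular identifiers (UMIs, each standing for 1 captured RNA molecule) and at most 10% of them from mitochondrial genes. A member had 3 or more UMIs summed over the marker genes *Cntn2*, *Adcyap1*, *Neurod1*, *Nhlh1* and *Pdzrn3*, with at least 1 from *Cntn2* or *Adcyap1*. It had 0 UMIs from the proliferation genes *Mki67*, *Top2a* and *Nusap1*, the GABAergic genes *Pax2*, *Gad1*, *Gad2* and *Slc32a1*, the Purkinje cell genes *Pcp2* and *Calb1*, the oligodendrocyte gene *Olig1* and the muscle gene *Actc1*. These 16 genes fixed which cells were members, so their levels are given as a description and were not tested.

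The mice had the genotype *Math1-Cre/Eed fl/fl*, were untreated and were taken at P7, and each gave 1 Drop-seq library from 1 side of its cerebellum. Math1-Cre drives Cre recombinase from the *Atoh1* promoter, which in the cerebellum is active in cerebellar granule neuron progenitors (CGNPs), so *Eed* is deleted in CGNPs and stays deleted in the cells they form, the cerebellar granule neurons (CGNs) among them. The remaining kept cells hold cells inside and outside this lineage. All animals were on the C57BL/6 background. Wild-type cells were not analysed here, so every comparison is between cells of the same 3 mice and none is between genotypes. The kept cells held 3302251 UMIs, with 576250 to 1651819 per mouse, and the members held 228417.

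CGNPs divide in the external granule layer of the early postnatal cerebellum under the mitogen Sonic hedgehog (SHH). When they leave the cell cycle they switch on *Cntn2* (TAG-1), an axonal adhesion molecule that marks the inner part of that layer, extend parallel fibers and migrate inward. *Adcyap1* encodes the neuropeptide PACAP, *Neurod1* and *Nhlh1* encode bHLH transcription factors of differentiating neurons, and *Pdzrn3* encodes a ubiquitin ligase. EED is a core subunit of Polycomb repressive complex 2 (PRC2), which trimethylates H3K27 and is known for keeping *Hox* genes silent in anterior brain regions, the cerebellum among them.

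Members made up 5.25% of the kept cells of mouse 1 (49 of 934), 6.29% in mouse 2 (35 of 556) and 8.82% in mouse 3 (81 of 918), a mean of 6.79% ± 1.84 (SD, n = 3). The exact Clopper-Pearson 95% intervals were 3.91% to 6.88%, 4.42% to 8.65% and 7.07% to 10.8%. These intervals cover the sampling of cells within each library, not the spread between animals. The lowest share was in mouse 1 and the highest in mouse 3. When each cell was thinned to 500 UMIs before the rule was applied, 81 cells were members, with shares of 2.36%, 3.60% and 4.25% and a mean of 3.40% ± 0.962 (n = 3). The level of the share moved with depth and the order of the mice did not. The median member held 1156 UMIs and the median remaining cell 1031, with 927, 857 and 1412 for remaining cells of mice 1, 2 and 3.

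**Figure D1:**
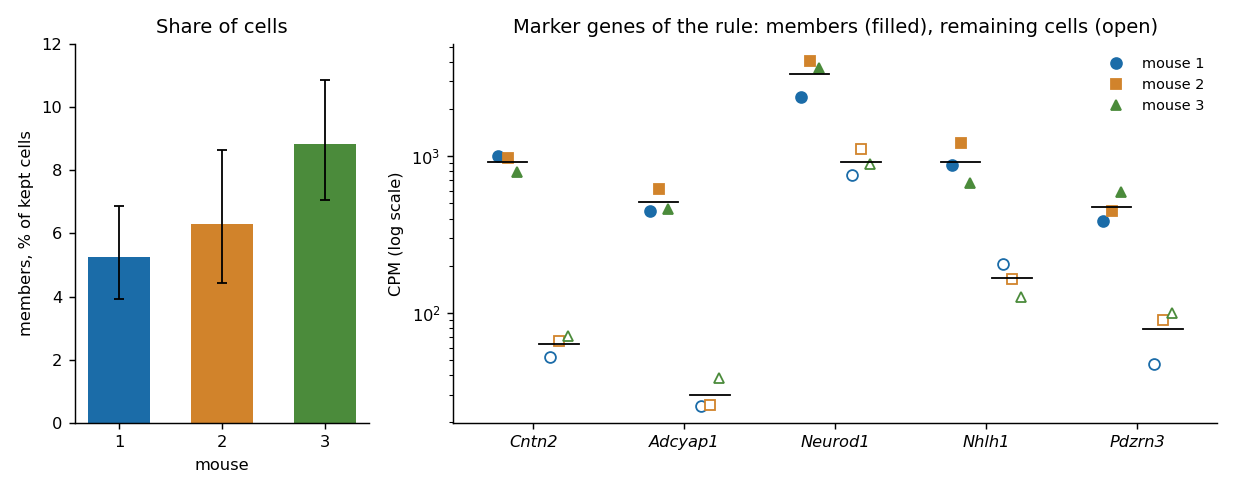
Left, the share of kept cells that were members in each mouse, as bars from 0 with exact 95% binomial intervals. Right, CPM (UMIs per 1000000 UMIs, log scale) of the 5 marker genes that chose the members, in members (filled) and in the remaining kept cells (open), with 1 symbol per mouse and a line at the mean of 3 mice; members made up 5.25% to 8.82% of cells.

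Members differed among themselves in which markers they held. Of the 165 cells, 83 had *Cntn2* without *Adcyap1*, 43 had *Adcyap1* without *Cntn2* and 39 had both. The summed UMIs of the 5 markers ran from 3 to 43, with a median of 7. Every member held at least 2 of the 5 markers, and 6 cells held all 5. *Neurod1* was the most abundant marker, at 2381, 4031 and 3649 CPM (UMIs per 1000000 UMIs of the summed cells) in mice 1, 2 and 3. *Cntn2* stood at 999, 980 and 792 CPM and *Adcyap1* at 450, 616 and 460 CPM. In the remaining cells *Cntn2* averaged 63.5 CPM ± 10.1 and *Adcyap1* 29.9 CPM ± 7.17 (SD, n = 3). *Cntn2* (GRCm38 chr1:132509427-132543256, minus strand) and *Adcyap1* (chr17:93199017-93206537, plus strand) overlap no other annotated gene.

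Cells on either side of the threshold of 3 UMIs differed in depth. The 20 members with exactly 3 marker UMIs had a median of 916.5 UMIs and 1949 CPM of *Tubb3*, the neuronal tubulin, over their summed UMIs. The 24 cells with 2 marker UMIs that otherwise met the rule had a median of 798.5 UMIs and 640 CPM of *Tubb3*. These levels rest on 41 and 14 *Tubb3* UMIs, and mouse 2 gave none of the 20 cells and 5 of the 24. Another 342 cells with 3 or more marker UMIs lacked both *Cntn2* and *Adcyap1*, and 88 had *Cntn2* or *Adcyap1* but also a UMI of an excluded gene.

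Most marker lists of other cell types that were prepared for this tissue were lower in members than in the remaining cells of every mouse. The lists of unipolar brush cells and Purkinje cells were exceptions, with ranges that overlapped. The interneuron list is not counted here, since the rule had set 4 of its 7 genes to 0. *Olig1* in the oligodendrocyte list, *Actc1* in the muscle list and *Pcp2* and *Calb1* in the Purkinje cell list were also set to 0 by the rule. Myeloid markers summed to 0 to 37.7 CPM per mouse in members against 340 to 483 CPM in the remaining cells, and 3 of the 7, *Csf1r*, *Ctss* and *Tyrobp*, were at 0. Endothelial markers (5 genes) summed to 16.6 to 28.0 CPM against 194 to 234 CPM, with *Pecam1*, *Ly6c1* and *Cdh5* at 0. Muscle markers (10 genes) summed to 0 to 150 CPM against 2131 to 2205 CPM, with *Myog* at 0 as well as *Actc1*, which the rule had set to 0. Astrocyte markers (8 genes) summed to 168 to 498 CPM against 1704 to 3372 CPM, with *Gja1* at 0. Red blood cell markers (4 genes) were present in all 3 mice, at 166 to 448 CPM against 1132 to 3941 CPM. The interneuron list reached 460 to 549 CPM in members against 594 to 841 CPM, where the rule had set *Pax2*, *Gad1*, *Gad2* and *Slc32a1* to 0. The lower sum was thus set in part by the rule. Of its other 3 genes 2 were tested, with log2 fold changes of -0.96 and 0.59, and neither was called. Oligodendrocyte markers (8 genes) summed to 49.9 to 140 CPM against 359 to 1015 CPM, with *Olig1*, *Sox10* and *Mag* at 0, and pericyte and fibroblast markers (7 genes) to 0 to 266 CPM against 570 to 945 CPM, with *Dcn* and *Lum* at 0. Purkinje cell markers (7 genes) summed to 49.9 to 166 CPM in members, and reached 2910 CPM in the remaining cells of mouse 3 against 70.3 and 144 CPM in the other mice. The unipolar brush cell list was not low, at 33.3, 56.0 and 121 CPM in members against 32.5, 42.6 and 48.1 CPM. Of its genes, *Lmx1a* was at 0 and *Eomes* had 20 UMIs (log2 fold change 1.20, edgeR adjusted p = 0.14). The part of these transcripts in the comparisons was not tested.

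Transcription factors of the granule lineage were the first check of the label. Of 24 listed genes 21 passed the filter on low counts, 9 of them rose in members against the 2243 remaining kept cells and none fell, where 2.81% of all 6256 genes tested were called higher and 4.84% lower. These counts come from UMIs summed per mouse and group and edgeR's quasi-likelihood test with Benjamini-Hochberg adjustment, with a call at an adjusted p under 0.05. The median log2 fold change of the 21 genes was 0.93, beside -0.05 for all genes tested. *Nfib*, a nuclear factor I gene that acts in granule neuron maturation, stood at 4495, 3303 and 4237 CPM in members and 2119, 1680 and 2171 CPM in the remaining cells, so the groups did not overlap (log2 fold change 0.98, SE 0.19, adjusted p = 0.0038). *Zic1*, a zinc finger gene of the granule lineage, stood at 1665, 1792 and 1568 CPM against 904, 794 and 845 CPM (0.93, SE 0.18, adjusted p = 0.0039). *Sox4*, a factor of newly formed neurons, rose by 1.25 (SE 0.24, adjusted p = 0.0029) and *Nfix* by 0.80 (SE 0.19, adjusted p = 0.012). *Nfia* (0.39, adjusted p = 0.39) and *Tcf4* (0.07, adjusted p = 0.91) did not pass, with groups that overlapped. *Atoh1*, the gene that marks dividing CGNPs, had 9 UMIs in members, at 16.6, 0 and 60.3 CPM, against 75.9, 79.6 and 27.0 CPM in the remaining cells, and did not pass the test (adjusted p = 0.68). *Pax6* stood at 233, 784 and 430 CPM against 260, 329 and 228 CPM and did not pass either (adjusted p = 0.21, and 0.036 with mouse as a block). *Atoh1* and *Pax6* were named after their values were seen. The calls for *Nfib*, *Sox4* and *Nfix* were lost without mouse 1, and those for *Nfib*, *Sox4*, *Nfix* and *Zic1* without mouse 2. With cells thinned to 500 UMIs the calls for *Zic1* and *Nfix* were lost, and that for *Nfix* also with no filter on low counts. The count of 9 fell to 1 without mouse 1, 0 without mouse 2 and 5 without mouse 3, and to 4 with cells thinned to 500 UMIs.

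Neuronal cytoskeleton and growth cone genes were the list with the most genes called higher. All 26 listed genes were tested, 17 were higher in members and none was lower, with a median log2 fold change of 1.15. Of all 6256 genes tested 2.81% were called higher and 4.84% lower. *Tuba1a*, the alpha tubulin of young neurons, was among the most abundant transcripts of members at 9141, 9210 and 9538 CPM, against 3565, 3276 and 4966 CPM in the remaining cells (1.20, SE 0.19, adjusted p = 5.9e-04). *Map1b*, which binds axonal microtubules, stood at 4279, 3807 and 3302 CPM against 1226, 1191 and 1461 CPM (1.51, SE 0.19, adjusted p = 7.7e-05). *Gap43*, a growth cone protein, stood at 2447, 3051 and 2413 CPM against 775, 1027 and 899 CPM (1.49, SE 0.19, adjusted p = 9.9e-05). The call for *Tuba1a* was lost without mouse 2. In all 3 genes every mouse's members were above every mouse's remaining cells. *Marcksl1* rose by 0.65 (SE 0.19, adjusted p = 0.039), a call that was lost with each mouse left out. *Marcks* (0.14, adjusted p = 0.83) and *Stmn1* (0.54, adjusted p = 0.25) were not called, and with mouse as a block *Stmn1* passed (adjusted p = 0.0060). *Tubb3*, named after its values were seen, stood at 1898, 2547 and 2239 CPM against 420, 440 and 652 CPM (2.09, SE 0.21, adjusted p = 3.8e-05). The count of 17 was 8 without mouse 1, 5 without mouse 2 and 9 after thinning.

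Axon guidance and synaptic genes gave 4 calls in all, to be read against the 2.81% of all genes called higher. Of 19 axon guidance and adhesion genes tested 2 rose and none fell, with a median log2 fold change of 0.29. *Sema6a*, a transmembrane semaphorin of granule cells, stood at 400, 532 and 445 CPM against 180, 118 and 183 CPM (1.44, SE 0.26, adjusted p = 0.0019), and *Ncam1*, a neural adhesion molecule, rose by 1.14 (SE 0.30, adjusted p = 0.025). Both calls were lost without mouse 2, and that for *Ncam1* also without mouse 1 and with cells thinned to 500 UMIs. *Nrcam* (0.43), *Cdh2* (0.56), *Plxnb2* (0.29) and *Robo2* (1.03) were not called, with adjusted p from 0.088 to 0.75. Of 15 synaptic vesicle and release genes 2 rose, none fell and all 15 had a positive fold change (median 0.69). *Slc17a6*, the vesicular glutamate transporter of young excitatory neurons, stood at 333, 224 and 400 CPM against 73.0, 72.2 and 107 CPM (1.95, SE 0.29, adjusted p = 3.8e-04). *Syt1*, the vesicle calcium sensor, rose by 1.24 (SE 0.34, adjusted p = 0.029), a call that was lost without mouse 1 and without mouse 2. *Syt11* (0.62, adjusted p = 0.13, and 0.035 with mouse as a block), *Cplx2* (0.25, adjusted p = 0.73) and *Nrxn3* (0.54, adjusted p = 0.48) were not called. Of 9 mature granule neuron genes present in the tables only 4 passed the filter and none was called. *Rbfox3* (NeuN) stood at 166, 196 and 211 CPM against 116, 104 and 123 CPM (0.72, adjusted p = 0.15), and *Kcnc1*, a potassium channel, at 83.2, 84.0 and 128 CPM against 35.5, 25.9 and 54.0 CPM (1.37, adjusted p = 0.056, and 0.038 with mouse as a block). *Cbln1* was at 47.9 CPM ± 9.32 in members (log2 fold change 0.70, adjusted p = 0.54). *Chn2* had 1 UMI in members against 118 in the remaining cells, a ratio of 8.77 with an exact 95% counting interval of 1.54 to 349 (edgeR adjusted p = 0.064, and 0.040 with no filter on low counts), the opposite direction to *Rbfox3* and *Kcnc1*.

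Over all genes, 176 were higher and 303 lower in members than in the remaining cells. The 12 largest increases among genes at 100 CPM or more, called in the same direction in all 3 mice, held 6 *Hox* genes, given with that group. *Robo3*, a receptor of commissural axons, had the highest fold change with all 3 mice (3.91, SE 0.61, adjusted p = 5.9e-04), with 35 UMIs in members, at 383, 56.0 and 75.4 CPM, against 7.89, 14.8 and 10.5 CPM. Mouse 1 was far above the other mice, and without it the log2 fold change was 2.48 and the adjusted p 0.083. With 5 or more marker UMIs the log2 fold change was 2.31 (adjusted p = 0.018). *Lmo3*, a LIM-only transcriptional cofactor, stood at 99.9, 252 and 173 CPM against 12.8, 33.3 and 27.0 CPM (2.78, SE 0.44, adjusted p = 6.1e-04). *Cnr1*, the cannabinoid receptor of growing axons and presynaptic terminals, stood at 366, 280 and 332 CPM against 58.2, 51.8 and 92.8 CPM (2.22, SE 0.30, adjusted p = 1.6e-04). *Pou4f1* (Brn3a), a POU-domain transcription factor, stood at 300, 140 and 188 CPM against 37.5, 59.2 and 44.8 CPM (2.17, SE 0.35, adjusted p = 7.5e-04), a call that was lost with cells thinned to 500 UMIs. *Ttc39b* (2.52, SE 0.48) and *Lrrtm2*, a postsynaptic organizer (2.19, SE 0.45), completed the set outside the *Hox* genes. The call for *Ttc39b* was lost without mouse 2 and that for *Lrrtm2* without mouse 1 and without mouse 2.

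The 12 largest decreases were *Tceal7* and genes of the cell cycle, muscle, glia, fibroblasts and blood. *Ube2c*, *Aspm* and *Kif15*, which act in mitosis, had 0 UMIs in members and were at least 18.1-fold, 8.72-fold and 8.05-fold lower, taking 3 UMIs over the group as the floor for a count of 0. The call for *Aspm* was lost without mouse 2 (edgeR adjusted p = 0.055). The muscle regulator *Myog* was at least 17.7-fold lower, and the muscle genes *Tpm2*, *Tnnt2*, *Tnni1* and *Myl1* had 1 UMI each in members against 587 to 687 in the remaining cells. For *Tpm2* the ratio was 51.1, with an exact 95% counting interval of 9.13 to 2019. *Dcn*, a matrix proteoglycan of fibroblasts, *Gja1*, a gap junction protein of astrocytes, and *Tceal7* were also at 0, and the globin gene *Hba-a2* had 1 UMI against 512. The rule removed cells with a UMI of *Mki67*, *Top2a*, *Nusap1* or *Actc1*, so cells with mitotic or muscle transcripts had little chance to enter. The 176 and 303 calls fell to 41 and 105 without mouse 1, 26 and 64 without mouse 2, 102 and 126 without mouse 3, and 76 and 121 with cells thinned to 500 UMIs.

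**Figure D2:**
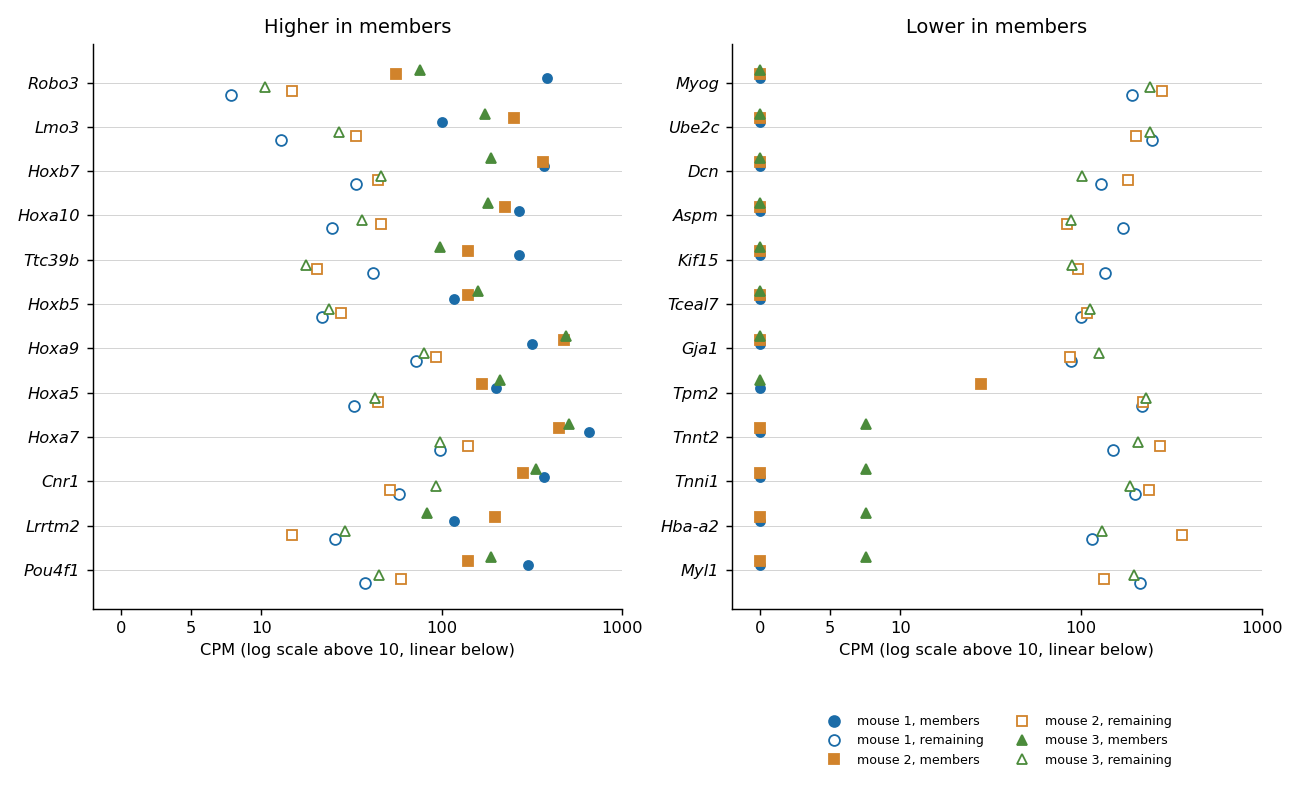
CPM per mouse of the 12 genes with the largest increase (left) and the 12 with the largest decrease (right) among called genes at 100 CPM or more, in members (filled) and remaining kept cells (open), on an axis that is logarithmic above 10 CPM and linear below. In each gene every members' symbol lies on the same side of every symbol of the remaining cells, and 7 of the 12 decreased genes are at 0 in members of all 3 mice.

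*Hox* genes, which set position along the body axis and are normally silent in the cerebellum, were the group with the largest median increase among the lists examined. UMIs of all 30 *Hox* genes in the tables were found in members, 667 in total, of which 363 came from HoxA genes, 186 from HoxB, 98 from HoxC and 20 from HoxD. Summed over the 30 genes, members had 3313, 2967 and 2729 CPM in mice 1, 2 and 3, against 612, 805 and 689 CPM in the remaining cells. Every mouse's members were above every value of the remaining cells. Of 12 *Hox* genes tested 10 rose and none fell (median log2 fold change 2.26, range 0.81 to 2.73), and the count stayed between 7 and 11 in every alternative run. Of all 6256 genes tested 2.81% were called higher and 4.84% lower. *Hoxa6*, *Hoxb4*, *Hoxb5* and *Hoxd3* passed the filter on low counts only through members. *Hoxb4* and *Hoxb13* were the 2 that were tested and not called. The other 18 did not pass the filter on low counts.

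*Hoxa7* was the most abundant, at 649, 448 and 505 CPM against 97.6, 141 and 97.4 CPM (2.25, SE 0.27, adjusted p = 5.4e-05). *Hoxa9* stood at 316, 476 and 490 CPM against 72.0, 92.5 and 79.6 CPM (2.37, SE 0.26, adjusted p = 3.8e-05). *Hoxb7* had the largest fold change of the group, at 366, 364 and 188 CPM against 33.5, 44.4 and 46.1 CPM (2.73, SE 0.33, adjusted p = 6.0e-05). *Hoxc9* stood at 200, 336 and 249 CPM against 57.2, 90.7 and 75.7 CPM (1.74, SE 0.30, adjusted p = 0.0016), a call that was lost without mouse 2. *Hoxa10* rose by 2.60 (SE 0.35, adjusted p = 1.7e-04), *Hoxb5* by 2.52 (SE 0.38, adjusted p = 4.0e-04) and *Hoxa5* by 2.28 (SE 0.33, adjusted p = 2.6e-04). In all of these genes the 3 members' values lay above the 3 values of the remaining cells. *Hoxa5* overlaps *Hoxa3* and *Hoxc9* overlaps Hoxc5 on the same strand, and *Hoxa7* and *Hoxa5* overlap the antisense gene Hoxaas3, as *Hoxb5* does Hoxb5os. The counting rule for shared stretches is not given in the sources used here, so these levels are uncertain to that extent.

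*Hox* transcripts were spread over most members. A UMI of any *Hox* gene was found in 81.6%, 91.4% and 82.7% of members (mean 85.3% ± 5.37, n = 3), and in 32.0% ± 2.38 of the remaining cells. Thinning every cell to 500 UMIs gave 74.5% ± 5.32 and 20.7% ± 2.34. In the interneuron-like cells, which lie outside the *Atoh1* lineage and had a median of 1104.5 UMIs, it was 1.48% ± 2.57, or 2 of 72 cells, the level of background in cells that should lack these transcripts. Of the 165 members, 84 had UMIs of 3 or more different *Hox* genes, 24 had 2, 31 had 1 and 26 had none. The median member had 3 *Hox* UMIs and the highest had 19, from up to 10 different genes.

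**Figure D3:**
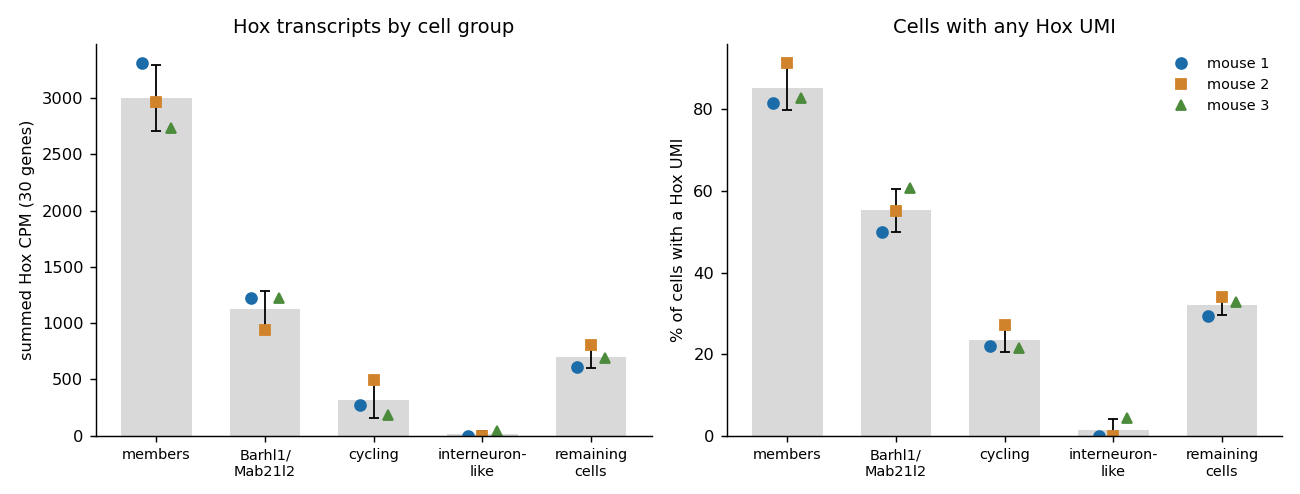
Summed CPM of 30 *Hox* genes (left) and the share of cells with at least 1 *Hox* UMI (right) in members, *Barhl1*/*Mab21l2* cells, cycling cells, interneuron-like cells and all remaining kept cells. Bars start at 0 and show the mean of 3 mice, whiskers the SD, and symbols the mice; members are highest in both panels, with 85.3% of cells positive, and interneuron-like cells lowest, with 1.48%.

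To show the promoters of *Hox* genes that moved together, the RefSeq windows (GRCm38.p6, 250 bases before to 50 bases after the start, minus strand) of *Hoxa9* (chr6:52227321-52227620) and *Hoxa5* (chr6:52204538-52204837) are given. Capitals mark every CG dinucleotide (letters CG, read the same on both strands), since PRC2 sites in mammals often lie in CG-rich promoters.
Hoxa9: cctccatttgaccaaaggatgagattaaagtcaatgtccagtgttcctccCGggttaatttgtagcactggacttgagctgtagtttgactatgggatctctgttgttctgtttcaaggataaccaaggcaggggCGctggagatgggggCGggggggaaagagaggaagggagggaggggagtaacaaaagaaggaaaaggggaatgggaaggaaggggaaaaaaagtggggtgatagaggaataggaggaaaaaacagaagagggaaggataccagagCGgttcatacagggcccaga
Hoxa5: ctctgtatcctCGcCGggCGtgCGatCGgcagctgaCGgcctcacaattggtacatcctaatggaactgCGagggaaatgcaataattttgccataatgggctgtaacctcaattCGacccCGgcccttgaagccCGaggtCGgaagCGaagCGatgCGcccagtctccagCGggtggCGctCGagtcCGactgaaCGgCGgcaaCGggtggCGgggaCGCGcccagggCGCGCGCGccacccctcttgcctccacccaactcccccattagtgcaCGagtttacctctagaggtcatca
The *Hoxa9* window held 4 CG dinucleotides and 68.6% of 32841 mouse promoter windows held as many or more, while the *Hoxa5* window held 29 and 12.9% held as many or more. At least 1 CG was present in 94.6% of all windows. The 8 of 12 tested *Hox* genes that matched the table had 9 windows with 4 to 29 CG (median 14), against a median of 7 over all windows. The windows shown hold the lowest and the highest of these CG counts. The *Hoxa9* window lies inside the annotated gene (chr6:52223100-52231089), at a start other than its outermost one. The *Hoxa5* window spans the annotated start of its gene (chr6:52201754-52204587). The log2 fold changes of the genes in members were 2.37 and 2.28, and a relation between CG count and fold change was not tested. The counts describe these windows only.

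Genes of proliferation and SHH signaling were low in members. Members were chosen for 0 UMIs of *Mki67*, *Top2a* and *Nusap1*, while 24.4% of the remaining cells held a *Top2a* UMI, so lower replication and mitosis genes were set by the rule and are given as a description. Of 27 such genes 22 were called lower and none higher (median log2 fold change -2.71), beside 4.84% of all genes called lower. *Cenpf*, a kinetochore protein, stood at 49.9, 0 and 30.2 CPM against 536, 376 and 516 CPM (log2 fold change -3.99). For *Hmgb2* the log2 fold change was -3.13 (-4.18 without mouse 3), for the replication helicase gene *Mcm7* it was -1.73 with overlapping groups, for *Pcna* -1.37 and for *Dut* -0.86. Of 15 listed SHH pathway and target genes only 5 passed the filter on low counts, and all 5 fell. The rule left out cells with proliferation transcripts, and its part in the fall of these 5 genes was not tested. *Ccnd2* stood at 416, 420 and 844 CPM against 1334, 1204 and 1308 CPM (-1.14, SE 0.25, adjusted p = 0.0083), *Ccnd1* at 99.9, 112 and 211 CPM against 499, 413 and 333 CPM (-1.43, SE 0.31, adjusted p = 0.0078; -2.20 without mouse 3) and *Sfrp1* fell by 1.40 (SE 0.34, adjusted p = 0.016). The SHH co-receptor gene *Gas1* had 0 UMIs in members, passed the filter only through the remaining cells and was at least 4.36-fold lower. *Mycn* fell by 1.24 (SE 0.37, adjusted p = 0.045). All 5 SHH calls were lost without mouse 1 and without mouse 2, and 3 remained without mouse 3. The 22 calls for replication and mitosis were 9, 7 and 13 without mice 1, 2 and 3.

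None of the PRC2 genes was called in the fit without a mouse term. *Eed* had 1 UMI in members, from mouse 3, against 121 in the remaining cells, a ratio of 8.99 with an exact 95% counting interval of 1.58 to 358 (edgeR adjusted p = 0.051). *Eed* passed in 5 of 10 alternatives, among them mouse as a block (adjusted p = 0.048), and *Rbbp7* (-1.03, adjusted p = 0.051) in 4 of 12, also with the block (adjusted p = 0.015). Drop-seq reads lie near transcript 3′ ends and the deleted stretch of *Eed* is not given in the sources used here, so *Eed* UMIs do not check the deletion. *Ezh2*, the catalytic subunit, stood at 300, 364 and 317 CPM against 470, 424 and 389 CPM (-0.45, SE 0.23, adjusted p = 0.31). Of the 8 PRC2 genes tested none passed, with a median of -0.48. Among 6 CDK inhibitors *Cdkn1c* fell by 2.04 (SE 0.25, adjusted p = 7.7e-05) and *Cdkn1a* by 2.12 (SE 0.41, adjusted p = 0.0034), a call that was lost without mouse 2 and with thinned cells, its fold change being -2.92 without mouse 3. *Cdkn1c* did not pass against cycling cells (0.40, adjusted p = 0.37) or *Barhl1*/*Mab21l2* cells (-0.25, adjusted p = 0.83) and fell by 1.43 against interneuron-like cells (adjusted p = 0.020), a call lost in 5 of 9 alternatives. At 1000 UMIs or more per cell it rose against cycling cells (0.92, adjusted p = 0.046). The 10 muscle markers summed to 2131 to 2205 CPM in the remaining cells and 0 to 149.8 CPM in members, and their part in the change of *Cdkn1c* was not tested. *Cdkn1a* fell by 1.72 against cycling cells (adjusted p = 0.011), with -2.53 without mouse 3 and, no longer past the test, -1.03 without mouse 2 (adjusted p = 0.12). *Cdkn2a*, which encodes p16 and ARF and is a known PRC2 target, stood at 117, 140 and 136 CPM against 127, 181 and 83.6 CPM (-0.00, adjusted p = 1.0). *Cdkn1b* (0.50, adjusted p = 0.26) and *Cdkn2d* (0.14, adjusted p = 0.89) were not called. Of 8 genes of PACAP and cAMP signaling, the calmodulin-dependent phosphodiesterase gene *Pde1c* rose by 1.11 (SE 0.25, adjusted p = 0.011) and the immediate early gene *Fos* fell by 2.02 (SE 0.47, adjusted p = 0.012). The call for *Pde1c* was lost without each mouse in turn and with 5 or more marker UMIs. That for *Fos* was lost without mouse 1, without mouse 3 and with thinned cells, its fold change being -2.65 without mouse 2 and -1.40 without mouse 3. Of 7 BCL2 family genes none was called. The pro-apoptotic gene *Bax* was at 216, 364 and 324 CPM against 219, 283 and 209 CPM. *Hrk*, a BH3-only gene, was at 133, 56.0 and 45.2 CPM against 12.8, 24.1 and 27.6 CPM (1.71, adjusted p = 0.075) and passed with DESeq2 (adjusted p = 0.046) and with 2 or more marker UMIs (adjusted p = 0.032). The BH3-only gene *Pmaip1*, named after its values were seen, had 1 UMI in members against 118 (edgeR adjusted p = 0.054). Of 75 ribosomal protein genes 5 fell and none rose, beside 4.84% of all genes called lower, with a median of -0.51, and 70 had a negative fold change. Against cycling cells 19 of 62 fell and against the *Barhl1*/*Mab21l2* cells described later 9 of 50 fell, where 12.6% and 2.08% of all genes were called lower, while none of 44 was called against interneuron-like cells.

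**Figure D4:**
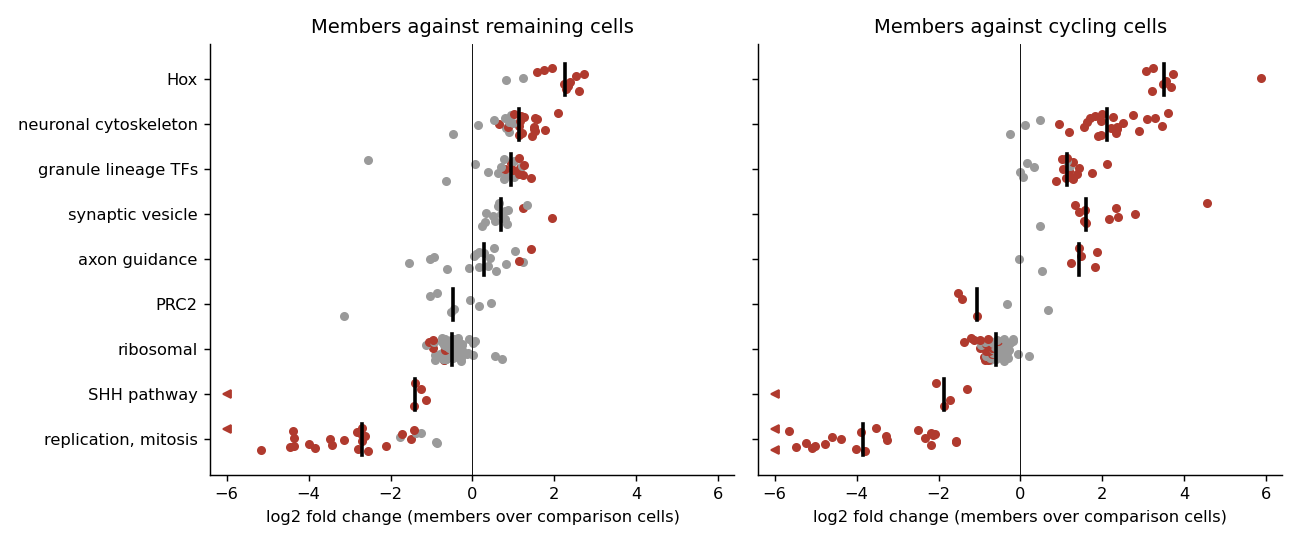
Log2 fold changes of the tested genes of 9 lists, members over the remaining kept cells (left) and over cycling cells (right). Each point is a gene, red where the adjusted p was under 0.05 and grey elsewhere, arrowheads mark fold changes below -6, and black lines are list medians. *Hox* genes lie farthest to the right, with medians of 2.26 and 3.52, and replication and mitosis genes farthest to the left. In the right panel the *Hox* genes passed the filter on low counts only through members.

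The next comparison set members beside the 396 cycling cells, which had 2 or more summed UMIs of *Mki67*, *Top2a* and *Nusap1* and no UMI of the other excluded genes, a set that was not limited to the granule lineage. Of 3174 genes tested, 423 (13.3%) were higher and 400 (12.6%) lower in members. Of 26 cytoskeleton genes 23 rose, with *Tubb3* at 1898, 2547 and 2239 CPM against 175, 181 and 196 CPM (3.60, SE 0.23, adjusted p = 6.5e-10). *Map1b* rose by 2.36 (SE 0.22) and *Gap43* by 2.36 (SE 0.21). Of 19 granule lineage factors 13 rose, *Sox4* by 2.12 (SE 0.31) and *Zic1* by 1.30 (SE 0.20), while *Tcf4* (0.15, adjusted p = 0.69) and *Nfia* (-0.00, adjusted p = 1.0) did not pass. Of 11 synaptic genes 10 rose, and both mature granule neuron genes tested rose, *Kcnc1* by 2.31 (SE 0.53, adjusted p = 0.0022; 2.90 without mouse 2) and *Rbfox3* by 0.90 (SE 0.33, adjusted p = 0.047), the call for *Rbfox3* being lost without each mouse in turn. All 8 *Hox* genes tested rose (median 3.52), with *Hoxa7* at 52.5, 68.1 and 28.7 CPM in cycling cells. These 8 genes passed the filter on low counts only through their level in members. Their shared direction was therefore largely set by the filter, and the count and median are given as a description. *Hoxb5* had 1 UMI in cycling cells against 33 in members, a ratio of 90.7 with an exact 95% counting interval of 15.2 to 3688. *Cnr1* (4.47, SE 0.41) and the neuronal factor *Myt1l* (4.11, SE 0.32) were among the largest increases, as were *Syt4*, *Ttc39b* and *Thsd7a*. Cycling cells were chosen for, and members for the lack of, *Mki67*, *Top2a* and *Nusap1*, so lower mitosis genes in members were set by the choice of both groups and are given as a description. All 24 replication and mitosis genes were lower, and *Ube2c*, *Kif15*, *Aspm*, *Kif11*, *Nuf2* and *Ncapg*, the 6 with the largest decrease, were at 0 in members. Of 5 PRC2 genes 3 fell, *Ezh2* by 1.07 (SE 0.24, adjusted p = 0.0019) from 692, 696 and 673 CPM, with *Suz12* and *Rbbp7*, whose calls were lost without mouse 3 (adjusted p = 0.075 and 0.054). Astrocyte markers summed to 1000.2 to 2178 CPM in cycling cells and 168 to 498 CPM in members. Red blood cell markers summed to 7153 CPM in the cycling cells of mouse 2 and 148 and 304 CPM in those of the other mice, against 166 to 448 CPM in members. The part of these cells in the differences was not tested. Without mouse 1 the calls were 280 and 244, without mouse 3 they were 260 and 234, and with thinned cells 139 and 131.

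The *Barhl1*/*Mab21l2* cells were 90 cells (42, 20 and 28 per mouse) with 2 or more UMIs of these 2 genes of the granule lineage, and none of *Cntn2*, *Adcyap1* or the excluded genes. Of 1011 genes tested, 23 (2.27%) were higher and 21 (2.08%) lower in members. With mouse as a block the calls were 55 and 47. No gene was called without mouse 1 or without mouse 2, and 38 and 27 were called without mouse 3. *Tubb3* was at 421, 565 and 878 CPM in *Barhl1*/*Mab21l2* cells, below every value of members (1.83, SE 0.27, adjusted p = 8.3e-05), and *Tuba1a* was at 3369, 3153 and 7134 CPM (1.04, SE 0.25, adjusted p = 0.010). Of 23 cytoskeleton genes 7 rose and all 23 had a positive fold change. The neuronal RNA-binding protein gene *Elavl4* rose by 1.88 (SE 0.40, adjusted p = 0.0055), *Sema6a* by 2.02 (SE 0.45, adjusted p = 0.0059), the retinoic acid binding protein gene *Crabp1* by 2.19 (SE 0.47, adjusted p = 0.0057), and *St18*, BC005764 and *1700025G04Rik* by 2.10 to 2.60. *Ccnd1* stood at 927, 565 and 728 CPM in *Barhl1*/*Mab21l2* cells, beside 692, 567 and 492 CPM in cycling cells, and fell by 2.23 in members (SE 0.35, adjusted p = 1.7e-04), *Ccnd2* fell by 1.42 (SE 0.27, adjusted p = 0.0027), and *Egr1*, *Nop58*, *Selm* and *Rplp1* fell by 1.22 to 1.85. Without mouse 3 the fold changes were 3.30 for *Sema6a*, -2.86 for *Ccnd1* and -2.72 for *Nop58*, and without mouse 1 that of *Crabp1* was 3.09 and no longer passed (adjusted p = 0.26). *Hoxa7* stood at 232, 47.1 and 193 CPM in these cells and rose by 1.61 in members (SE 0.39, adjusted p = 0.010), and *Hoxa9*, at 147, 282 and 171 CPM, did not pass (1.23, SE 0.38, adjusted p = 0.057, and 0.017 with mouse as a block). A *Hox* UMI was found in 55.2% ± 5.36 of *Barhl1*/*Mab21l2* cells and 23.6% ± 3.13 of cycling cells, both below the 85.3% of members, and thinned to 500 UMIs in 36.0% ± 7.79 and 9.20% ± 4.58.

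**Figure D5:**
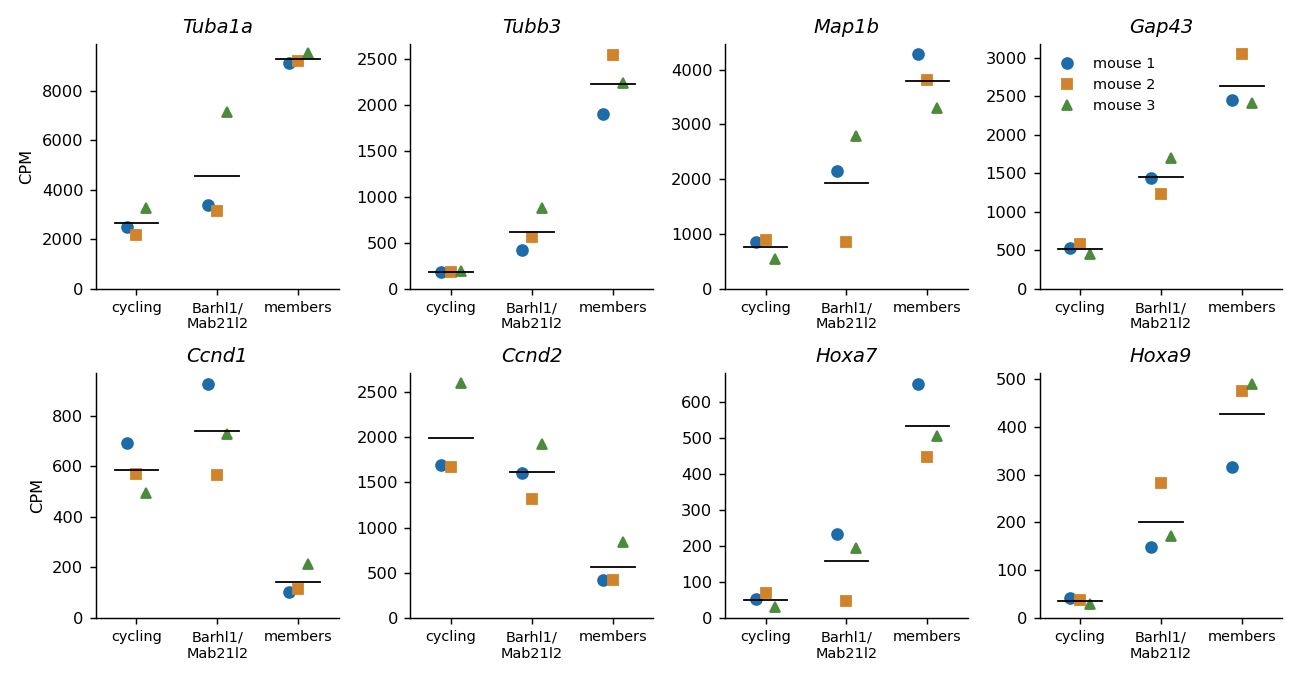
CPM of 8 genes in cycling cells, *Barhl1*/*Mab21l2* cells and members, with 1 symbol per mouse, a line at the mean of 3 mice and axes from 0. The tubulins, *Map1b*, *Gap43* and both *Hox* genes have their highest mean in members, and *Ccnd1* and *Ccnd2* their lowest, at 141 and 560 CPM.

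Against the 72 interneuron-like cells (17, 10 and 45 per mouse), with 3 or more UMIs of *Pax2*, *Gad1*, *Gad2* and *Slc32a1*, 990 genes were tested and 28 (2.83%) were higher and 16 (1.62%) lower in members. Of 23 cytoskeleton genes 5 rose, beside the 2.83% of all genes, and none fell. *Tubb3* was at 483, 496 and 1015 CPM in interneuron-like cells, below every value of members (1.52, SE 0.29, adjusted p = 1.2e-04; 2.22 without mouse 3). *Map1b* rose by 1.44 (SE 0.26, adjusted p = 3.1e-05), *Gap43* by 1.60 (SE 0.30, adjusted p = 7.4e-05) and *Stmn2* by 1.29 (SE 0.29, adjusted p = 0.0016; 1.89 without mouse 3). All 4 calls were lost without mouse 1, that for *Gap43* also without mouse 3, those for *Tubb3* and *Stmn2* with thinned cells, and those for *Gap43* and *Stmn2* at 1000 UMIs or more per cell. Of 11 granule lineage factors 1 rose and 2 fell. *Pax6*, a granule lineage factor, rose by 2.73 (SE 0.58, adjusted p = 5.3e-04), while *Tcf4* fell by 1.27 (SE 0.26, adjusted p = 2.9e-04) and *Neurod2* by 1.25 (SE 0.38, adjusted p = 0.037). The call for *Tcf4* was lost without mouse 1, without mouse 3, with thinned cells and with no filter on low counts, and that for *Neurod2* in 7 of 11 alternatives, each mouse left out among them. *Tuba1a* (0.66, SE 0.22, adjusted p = 0.078, and 7.6e-05 with mouse as a block), *Zic1* (0.52, SE 0.28, adjusted p = 0.46) and *Nfib* (0.43, SE 0.23, adjusted p = 0.46) did not pass the test without the block. *Hoxa9* had 101 UMIs in members and 0 in interneuron-like cells, at least 13.2-fold higher, and *Hoxa7* had 122 against 1, a ratio of 47.9 with an interval of 8.43 to 1906. *Hoxc9*, *Hoxa10* and *Hoxa5*, too low to be tested here, were also at 0 in interneuron-like cells, which makes members at least 7.45-fold, 6.28-fold and 6.02-fold higher. The 30 *Hox* genes had 3 UMIs among 89618 in interneuron-like cells and 667 among 228417 in members. The homeobox gene *Uncx*, with 65 UMIs against 0, was at least 8.50-fold higher, and *Crabp1*, *Pde1c* and the neuritin gene *Nrn1* had 96, 91 and 81 UMIs against 1 each. *Slc17a6*, the glutamatergic transporter, had 81 UMIs against 3, a ratio of 10.6 with an interval of 3.50 to 52.4. *Tfap2b* and *Tfap2a*, which encode AP-2 factors of GABAergic cerebellar neurons, had 2 and 3 UMIs in members against 65 and 54, and *Lhx5* stood at 99.9, 196 and 45.2 CPM against 1104, 992 and 830 CPM (-3.34, SE 0.42, adjusted p = 5.0e-09). *Igfbp5* fell by 3.66 (SE 0.41), *Lrrfip1* by 2.19 (adjusted p = 0.031) and *Socs2* by 1.70 (adjusted p = 0.0034). The call for *Lrrfip1* was lost with DESeq2, with no filter on low counts, without mouse 1 and without mouse 2, and that for *Socs2* with no filter, without mouse 1, without mouse 3 and with 1 UMI more for the comparison cells. The call for *Slc17a6* was lost with DESeq2 and without mouse 1, and that for *Crabp1* without mouse 3. Without mouse 3, which gave 45 of the 72 interneuron-like cells, the calls were 6 and 4, and without mouse 1 they were 17 and 7.

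Members that held *Adcyap1* (82 cells) were compared with members that held *Cntn2* and no *Adcyap1* (83 cells), with medians of 1160 and 1156 UMIs. Of 564 genes tested 0% were called with edgeR at an adjusted p under 0.05, with 11 genes at an unadjusted p under 0.05, and DESeq2 called none, with 1 gene at an unadjusted p under 0.05. *Tuba1a* (0.02, SE 0.18) and *Nfib* (0.02, SE 0.21) had fold changes below their SE. *Hoxa7* stood at 738, 669 and 670 CPM in *Adcyap1* cells and 562, 184 and 344 CPM in the others (0.82, SE 0.36, adjusted p = 0.996). A *Hox* UMI was found in 95.5%, 94.7% and 100% of *Adcyap1* cells and in 70.4%, 87.5% and 65.0% of the others, so the mice did not overlap. This share was examined after the values were seen. Each mouse gave both sets of cells, the share was higher in *Adcyap1* cells in 3 of 3 mice, and the 2-sided exact permutation test within mice gave p = 0.25, the smallest that 3 pairs allow. After thinning to 500 UMIs the shares were 72.7%, 89.5% and 85.4% against 66.7%, 68.8% and 47.5%.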

How the data were processed

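Drop-seq libraries from 3 P7 *Math1-Cre/Eed fl/fl* cerebella were deposited by the authors as raw UMI counts for 16181 genes per cell barcode, without normalization, in 3481 barcodes with 3693051 UMIs. The submitters' processing notes name STAR and mm10, versions not given. Barcodes under 500 UMIs or over 10% mitochondrial UMIs were left out here. No doublet caller was run, and the study's limit of 4 SD above the median was an alternative. The libraries shared 0 barcodes. The members, comparison cells and gene lists were chosen with earlier results of these data known. Named genes were those called, in the same direction in 3 of 3 mice and at 100 CPM or more in the higher group, by largest fold change (12 and 12, or 6 and 6), and up to 6 per list by highest CPM (*Hox*, CPM in members).

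Summing the UMIs of a group within each mouse gave the counts for edgeR 4.0.16 in R 4.3.3 (TMM, filterByExpr, quasi-likelihood, two-sided, adjusted p under 0.05), leaving out the 16 rule genes, and *Barhl1* and *Mab21l2* where these chose the comparison cells. Each SE was derived from the fold change and its F statistic. The tests were checked on simulated data. Of 100 genes changed 2-fold, 9 were recovered for members against remaining cells and 30 against cycling cells. Of 100 genes changed 4-fold, 62 and 79 were recovered. Against interneuron-like and *Barhl1*/*Mab21l2* cells 27 and 52 of 100 genes changed 2-fold were recovered. A gene that was not called may therefore still differ. Each mouse gave both sums, and deviations from group means correlated, across genes that are not independent, at 0.155, 0.137 and 0.213 in mice 1, 2 and 3 for members against remaining cells. Alternatives were mouse as a block, DESeq2 1.42.0 and its size factors, no filter on low counts, cells thinned to 500 UMIs, 1000 UMIs per cell, the study's cell filters, other marker thresholds and each mouse left out. Intervals and floors (3 UMIs over the group) cover counting error only. Annotation is GENCODE M21 (GRCm38), promoter windows RefSeq. Some genes are not reported here.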

Additional observations from a re-analysis of the deposited data

Results flagged for a closer look

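Among the 1073 barcodes outside the cell filters, 18 met the marker rule of the members: 6 in mouse 1, 8 in mouse 2 and 4 in mouse 3. All 18 had under 500 UMIs and none was left out for mitochondrial UMIs. They were in no comparison of the report.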

How the results depend on the processing

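Counts of genes called higher and lower moved by over 1.5 times as follows. Each mouse left out gave 26 to 102 higher and 64 to 126 lower against remaining cells, 260 to 391 and 234 to 361 against cycling cells, 6 to 34 and 4 to 18 against interneuron-like cells, 0 to 38 and 0 to 27 against *Barhl1*/*Mab21l2* cells and 0 in the comparison within members. Cells thinned to 500 UMIs gave 76 and 121 against remaining cells, 139 and 131 against cycling, 5 and 2 against interneuron-like and 9 and 9 against *Barhl1*/*Mab21l2* cells, and membership after thinning gave a share of 3.40%. Without the filter on low counts 558 genes were lower than in remaining cells, 700 than in cycling cells and 6 than in *Barhl1*/*Mab21l2* cells. DESeq2 gave 16 and 7 against interneuron-like cells and 14 higher than in *Barhl1*/*Mab21l2* cells. Cells of 1000 UMIs or more gave 17 and 2 against interneuron-like cells, 5 or more marker UMIs gave 9 lower, and 1 UMI more for the comparison cells gave 9 lower there and 38 higher against *Barhl1*/*Mab21l2* cells. The replicate block (mouse as a term) gave 55 and 47 against *Barhl1*/*Mab21l2* cells and moved no other count over 1.5 times. With it 477 of the 479 genes called against remaining cells kept their call and sign. The causes were not tested, beyond fewer mice or UMIs.

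Of 63 named genes called against remaining cells, 30 kept the call in every alternative that could test them, *Tubb3*, *Map1b*, *Gap43*, *Hoxa7*, *Hoxa9* and *Hoxb7* among them, and of 34 against cycling cells 30 did (not *Suz12*, *Rbbp7*, *Rbfox3* and *Cdkn1a*). None of the 18 named against *Barhl1*/*Mab21l2* cells and 10 of 21 against interneuron-like cells did. No called gene changed sign. Of 476 values of genes not called against remaining cells, 25 passed the threshold, 6 of them for *Pcna*, 5 for *Eed* and 4 for *Rbbp7*. Of genes not called against remaining cells, the log2 fold change changed sign for *Tcf4* (-0.098 with no filter, -0.0191 thinned, -0.045 with 5 or more marker UMIs, -0.071 to 0.14 with each mouse left out), *Plxnb2* (-0.75 thinned), *Marcks* (-0.014 with no filter, -0.15 to 0.27 with each mouse left out), *Cdkn2a* (0.17 with the block, 0.38 thinned, 0.064 with 2 or more marker UMIs, -0.35 to 0.27 with each mouse left out), *Cdkn2d* (-0.011 with no filter, -0.041 to 0.22 with each mouse left out), *Jarid2* (-0.53 at 1000 UMIs, -0.11 to 0.55 with each mouse left out), *Prkar1a* (-0.24 thinned), *Bad* (0.038 with the block, 0.22 thinned, 0.16 at 1000 UMIs, 0.25 with 5 or more marker UMIs, -0.42 to 0.26 with each mouse left out) and *Mcl1* (-0.080 with no filter, -0.060 to 0.22 with each mouse left out). With each mouse left out it also ran from -0.24 to 0.046 for *Rbbp4*, -0.27 to 0.58 for *Prkaca* and -0.30 to 0.76 for *Bcl2l11*. Within members it changed sign for *Tuba1a* (-0.031 to 0.11 with each mouse left out), *Nfib* (-0.090 thinned, -0.14 to 0.28 with each mouse left out) and *Hoxa9* (-0.094 at 1000 UMIs).

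The smallest sum of members was 35724 UMIs, in mouse 2, and 3 UMIs over all members correspond to 13.1 CPM, so genes at lower levels were not measured reliably in 165 cells. The p-values rest on the spread between the sums of 3 mice together with counting noise. The fit without a mouse term treated the sums of a mouse as separate.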

Other observations

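Genes outside the lists and outside the naming rule, chosen after their values were seen, also differed between members and the remaining kept cells. *Crabp1*, a retinoic acid binding protein, stood at 516, 448 and 369 CPM in members against 107, 124 and 77.0 CPM (log2 fold change 2.07, SE 0.28, edgeR adjusted p = 1.5e-04). *Myt1l*, a zinc finger factor that maintains neuronal identity, stood at 616, 756 and 573 CPM against 122, 120 and 259 CPM (1.86, SE 0.30, adjusted p = 7.5e-04). *Nnat*, an imprinted gene of young neurons, stood at 2514, 1987 and 2232 CPM against 705, 827 and 792 CPM (1.50, SE 0.19, adjusted p = 1.0e-04). In these 3 genes the mice did not overlap between the groups. *Reln*, the extracellular matrix protein that granule cells secrete (1.81, SE 0.43, adjusted p = 0.015), and *Grin2b*, an NMDA receptor subunit (1.72, SE 0.37, adjusted p = 0.0070), rose as well. The call for *Myt1l* was lost without mouse 2. That for *Grin2b* was lost without mouse 2, without mouse 3 and with cells thinned to 500 UMIs. That for *Reln* was lost without each mouse in turn and at 1000 UMIs or more per cell.

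*Igf2* and H19, imprinted growth genes that were also chosen after their values were seen, were lower in members, while the imprinted gene *Nnat* rose. *Igf2* stood at 166, 168 and 98.0 CPM against 580, 559 and 385 CPM (-1.97, SE 0.31, adjusted p = 6.3e-04), and H19 at 66.6, 196 and 37.7 CPM against 417, 396 and 244 CPM (-2.26, SE 0.43, adjusted p = 0.0030), a call that was lost without mouse 1. The homeobox gene *Uncx*, with 0 UMIs among 89618 in interneuron-like cells (3 UMIs would be 33.5 CPM), stood at 216, 308 and 309 CPM in members against 123, 115 and 84.9 CPM in all remaining cells (1.35, SE 0.28, adjusted p = 0.0061). Its call was lost without mouse 2, without mouse 3 and with cells thinned to 500 UMIs.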
